A study of Homo sapiens with 2 samples.

Results

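The genes described here encode 10 proteins through which the transcription factor Snail is known to silence epithelial genes: KDM1A, RCOR1, HDAC1, HDAC2, SIN3A, EZH2, SUZ12, EHMT2, LOXL2 and AJUBA. They were chosen by symbol, matched to Ensembl identifiers in GENCODE release 44, and all 10 were found among the 58735 genes of each count table. The samples were MCF10a-Snail-ER cells, a line derived from non-tumorigenic human mammary epithelium that stably expresses Snail fused to the estrogen receptor, in which 100 nM tamoxifen had been present for 1 day to set off the change from epithelial to mesenchymal state. Polyadenylated RNA described as matched was sequenced as 1 Oxford Nanopore direct RNA library (MinION) and 1 Illumina library (TruSeq stranded mRNA). No untreated library was analysed here, so the values give the levels of these genes after Snail activation and how far the 2 libraries differed, not a response to Snail. Neither library has a replicate, and every interval and test covers counting error in these 2 libraries only.

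Snail binds E-box sequences in the promoters of genes such as the E-cadherin gene CDH1 and has no enzymatic activity of its own. Its short amino-terminal SNAG domain resembles the tail of histone H3 and docks the demethylase KDM1A with its scaffold RCOR1, which removes methyl groups from lysine 4 of histone H3. Deacetylases HDAC1 and HDAC2 with the scaffold SIN3A remove acetyl groups, Polycomb repressive complex 2 (PRC2, with the methyltransferase EZH2 and its partner SUZ12) methylates lysine 27, and EHMT2, also called G9a, methylates lysine 9. AJUBA is a LIM-domain adaptor that links Snail to further enzymes, and LOXL2 is a lysyl oxidase that binds Snail.

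Depth differed widely, with 403235 counts by Nanopore and 191741714 by Illumina. A single Nanopore count stood for 2.48 CPM (counts-per-million), and the 3 counts taken as the smallest level that library could show were 7.44 CPM. The labelled cell type was checked with marker genes. All 8 markers of basal mammary epithelium were detected in both libraries, with summed levels of 3507 (Nanopore) and 3346 CPM (Illumina). The 5 luminal markers summed to 12.4 and 18.4 CPM, the 5 fibroblast markers to 24.8 and 33.0 CPM, of which DCN gave 24.8 and 26.5, and the 3 endothelial markers to 0 and 5.16 CPM. Of the 4 blood cell markers, CD68 gave 32.2 and 45.1 CPM, CD3E and HBB were at 0 in both libraries and PTPRC had 2 Illumina counts. CDKN2A and CDKN2B, which are deleted in this line, had no count in either library.

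Together the 10 Snail partner genes had 171 Nanopore counts, 424 CPM, and 169353 Illumina counts, 883 CPM. The Illumina share of these genes would have given 356 counts in a library of the Nanopore depth. Single genes ranged from 1 to 46 counts by Nanopore, with a median of 12.5, and from 9442 to 35301 counts by Illumina. All 10 had at least 1 count in both libraries, though EZH2 and EHMT2 were under the floor of 3 counts by Nanopore, and all 10 passed the filter for testing, a mean of at least 5 CPM over the libraries. Each of the 12414 genes that passed was compared between the libraries by a two-sided exact conditional binomial test with Benjamini-Hochberg adjustment, and was called at an adjusted p-value under 0.05. By this rule 7 of the 10 genes were higher by Illumina, where the background over all tested genes was 27.2%, and 0 were higher by Nanopore, where it was 20.2%. On a log2(CPM + 1) scale 6 of the 10 were past 2-fold toward Illumina and 0 toward Nanopore, with backgrounds of 30.2% and 19.2%. These backgrounds include many rarer genes: the median Illumina level was 57.7 CPM for the Snail partners and 28.2 CPM for all tested genes. Among the 3083 tested genes within the partners' own range of Illumina CPM, a restriction chosen after the values were seen, 53.6% were called higher by Illumina and 8.01% higher by Nanopore, and 40.2% and 3.99% were past 2-fold in those directions. The median log2 ratio of Nanopore over Illumina was -1.11 for the 10 genes and -0.42 for all tested genes.

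**Figure D1:**
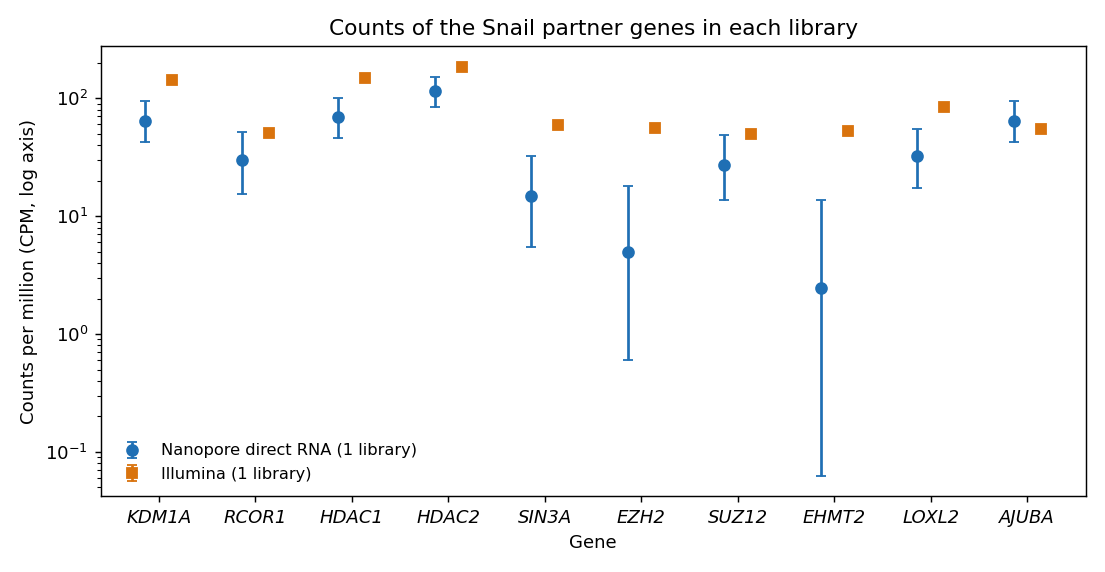
Level of each Snail partner gene in the Nanopore (circles) and Illumina (squares) library, in CPM on a log axis, with exact 95% Poisson intervals. The Nanopore value lay under the Illumina value for 9 of the 10 genes and above it for AJUBA, and the intervals of EZH2 and EHMT2, with 2 and 1 Nanopore counts, are the widest.

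**Figure D2:**
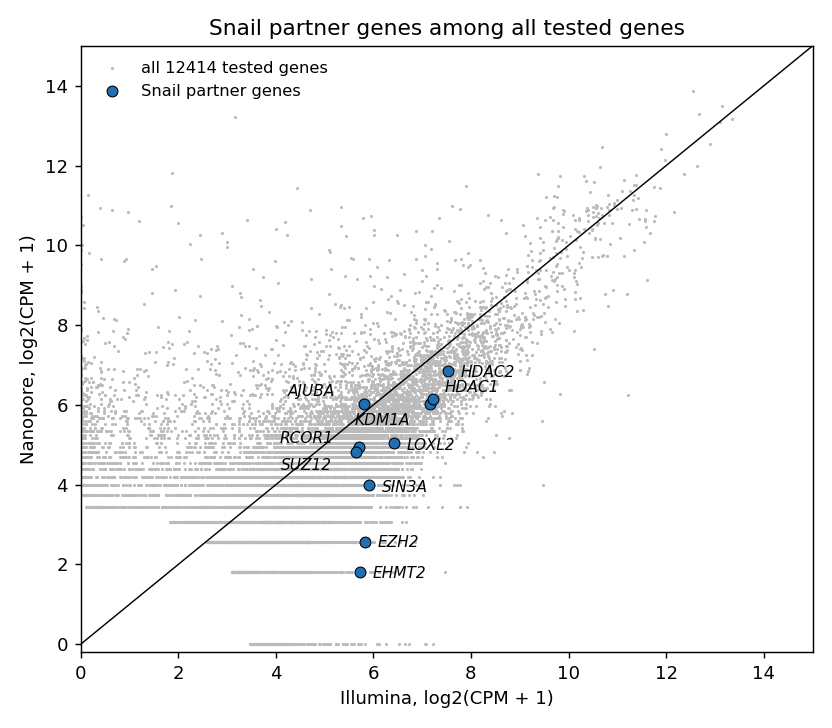
Illumina (x axis) and Nanopore (y axis) levels of all 12414 tested genes (grey) and of the Snail partners (blue), each as log2(CPM + 1), with the line of equal level. The partners lie in the middle of the Illumina range, and EZH2 and EHMT2 lie far under the line.

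The histone demethylase KDM1A (ENSG00000004487, chromosome 1, 23019443 to 23083689, hg38) had 26 Nanopore counts, 64.5 CPM with an exact 95% Poisson interval of 42.1 to 94.5, and 27335 Illumina counts, 143 CPM (141 to 144). Its level was 2.21-fold higher by Illumina, with an exact 95% interval of 1.51 to 3.39 (exact binomial adjusted p = 2.55e-05). The scaffold RCOR1 (ENSG00000089902, chromosome 14, 102592649 to 102730561), also called CoREST, which holds KDM1A on nucleosomes together with HDAC1 and HDAC2, had 12 and 9774 counts, or 29.8 CPM (15.4 to 51.98) and 51.0 CPM (49.97 to 51.996). The difference of RCOR1 was not detectable at this depth: the Illumina level was 1.71-fold the Nanopore level, with an interval from 0.98 to 3.32 (exact binomial adjusted p = 0.112). Within the Nanopore library KDM1A reads outnumbered RCOR1 reads 2.17-fold (exact 95% interval 1.06 to 4.71). By Illumina per transcript length the same ratio was 5.21 with canonical transcript lengths and 0.946 with union exonic lengths.

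HDAC1 (ENSG00000116478, chromosome 1, 32292083 to 32333635) had 28 Nanopore and 28629 Illumina counts, or 69.4 CPM (46.1 to 100.4) and 149 CPM (148 to 151). It was 2.15-fold higher by Illumina (1.49 to 3.24, exact binomial adjusted p = 2.72e-05). Its close relative HDAC2 (ENSG00000196591, chromosome 6, 113933028 to 114011308) had the highest count of the 10 in both libraries, 46 and 35301, or 114 CPM (83.5 to 152) and 184 CPM (182 to 186). The 1.61-fold higher Illumina level of HDAC2 (1.21 to 2.20) passed the test with an exact binomial adjusted p of 0.00194. The canonical transcripts of HDAC1 and HDAC2 shared few 50-base words with transcripts of any other gene, 0.435% and 0.0206% of their words, so little of either transcript could be mistaken for the other at that length. SIN3A (ENSG00000169375, chromosome 15, 75369379 to 75455842), the large scaffold that carries both deacetylases, had 6 Nanopore counts, 14.9 CPM (5.46 to 32.4), and 11407 Illumina counts, 59.5 CPM (58.4 to 60.6). Its Illumina level was 3.998-fold higher (1.84 to 10.9, exact binomial adjusted p = 0.000113).

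The Polycomb pair differed. EZH2 (ENSG00000106462, chromosome 7, 148807257 to 148884321), the catalytic subunit, had 2 Nanopore counts, 4.96 CPM (0.601 to 17.9), where its Illumina share of 10717 counts, 55.9 CPM (54.8 to 57.0), would have given 22.5. The ratio was 11.3-fold in favour of Illumina, with a wide exact interval of 3.12 to 93.1 and an exact binomial adjusted p of 5.38e-07. SUZ12 (ENSG00000178691, chromosome 17, 31937007 to 32001038), which EZH2 needs for its activity, had 11 Nanopore counts, 27.3 CPM (13.6 to 48.8), and 9442 Illumina counts, 49.2 CPM (48.3 to 50.2). Its 1.81-fold ratio (1.01 to 3.62) did not pass the test (exact binomial adjusted p = 0.0884). In the Nanopore library SUZ12 reads were 5.50 times as many as EZH2 reads (1.20 to 51.1). By Illumina, divided by transcript length as described further on, SUZ12 was at 0.520 times the level of EZH2 with canonical transcript lengths and at 1.45 times with union exonic lengths. The EZH2 transcript aligned to a single place in the genome, the only other gene with a count inside its body was RNU7-20P with 2 Illumina counts, and 1.38% of its 50-base words occurred elsewhere, in the pseudogene EZH2P1.

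SUZ12 has a partial copy on the same chromosome, the transcribed pseudogene SUZ12P1 (ENSG00000264538), and 9.67% of the 50-base words of the SUZ12 transcript occurred in transcripts of other genes, SUZ12P1 first among them. Coding exons of SUZ12 within a set range of lengths were compared without gaps, and 3 had their best match inside an annotated SUZ12P1 exon. Of those 3, the exons of 86 and 106 bases were identical in SUZ12P1, and the exon of 94 bases had 2 differences. The latter is exon 8 of 16 in SUZ12, and it is shown because these are the only letters by which a read of that exon could be assigned. Both are from the hg38 plus strand, 5′ to 3′, with the differing bases in capitals, at chr17:31976521-31976614 for SUZ12 and chr17:30769872-30769965 for SUZ12P1.
SUZ12: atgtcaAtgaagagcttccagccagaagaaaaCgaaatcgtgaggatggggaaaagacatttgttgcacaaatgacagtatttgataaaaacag
SUZ12P1: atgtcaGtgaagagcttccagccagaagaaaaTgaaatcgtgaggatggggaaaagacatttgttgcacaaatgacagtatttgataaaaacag
The pseudogene had 4 Nanopore and 1277 Illumina counts, against 11 and 9442 for SUZ12. How reads that fit both genes were counted is not given in the sources used here, so the split between them is uncertain in each library.

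EHMT2 (ENSG00000204371, chromosome 6, 31879759 to 31897698) had the lowest Nanopore count of the 10. Its single count, 2.48 CPM (0.0628 to 13.8), was under the 3 counts taken as the floor, whereas Illumina gave 10015 counts, 52.2 CPM (51.2 to 53.3), a share that would have given 21.1 Nanopore counts. The Illumina level was 21.1-fold the Nanopore level, with an exact interval of 3.78 to 832 (exact binomial adjusted p = 1.97e-07). The gene lies in the major histocompatibility region, for which hg38 carries alternate versions as separate contigs. The whole canonical transcript of EHMT2 also aligned to 5 alternate contigs of chromosome 6, with at most 2 differing bases on each, while none of the other 9 genes had such a copy. A coding stretch in exon 4 of 28, at chr6:31896397-31896516 on the minus strand, stood unchanged on all 5 of those contigs and is shown, 5′ to 3′ along the gene, because a read of it fits each of them as well as the main chromosome.
EHMT2: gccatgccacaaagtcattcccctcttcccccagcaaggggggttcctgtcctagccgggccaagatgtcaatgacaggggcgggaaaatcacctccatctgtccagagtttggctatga
Neighbouring genes were mostly low by Nanopore as well. Of the 10 other tested protein-coding genes within 100 kb of EHMT2, a window chosen after the values were seen, all 10 had copies on alternate contigs and 9 were at least 2-fold higher by Illumina, while STK19 was not (log2 ratio -0.70). VARS1, a tRNA synthetase gene, had 6 Nanopore counts where 87.3 would match its Illumina share, and NELFE had 1 where 33.7 would. Across the tested genes 65.2% of the 365 with an alternate copy were past 2-fold toward Illumina, set against 29.4% among the 11902 without, and on chromosome 6 the count was 93 of 107. Whether the alternate contigs were in the authors' reference is not given in the sources used here, and their part in the EHMT2 count was not tested. EZH2, low as well, had no such copy, nor did its 3 tested protein-coding neighbours within 300 kb. Those 3 also had ratios below 0, and 2 of them were past 2-fold toward Illumina, among them PDIA4 with 25 Nanopore counts where 101 would match.

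LOXL2 (ENSG00000134013, chromosome 8, 23296897 to 23425328) had 13 Nanopore counts, 32.2 CPM (17.2 to 55.1), and 16170 Illumina counts, 84.3 CPM (83.0 to 85.6). It was 2.62-fold higher by Illumina (1.53 to 4.91, exact binomial adjusted p = 0.000278). AJUBA (ENSG00000129474, chromosome 14, 22971177 to 22982551) was the only gene of the 10 with a higher level by Nanopore, at 26 counts, 64.5 CPM (42.1 to 94.5), and 10563 Illumina counts, 55.1 CPM (54.0 to 56.2). The ratio of 1.17 had an exact interval of 0.764 to 1.72 (exact binomial adjusted p = 0.601), so no difference was detectable for it. KDM1A and AJUBA had the same Nanopore count. Their Illumina levels were 71.6 and 20.5 TPM (transcripts-per-million) per canonical transcript length, but 21.1 and 25.4 TPM per union exonic length.

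Longer transcripts give more fragments to an Illumina library, whereas a direct RNA read stands for a single RNA strand. The Illumina counts were therefore also divided by the length of each gene's Ensembl canonical transcript and scaled to TPM, and Nanopore CPM was set against TPM without change. On this scale the 10 genes summed to 363 TPM by Illumina and 424 CPM by Nanopore. The test then called 3 of the 10 genes higher by Illumina, HDAC1, EZH2 and EHMT2, where the background was 11.2%, and 2 higher by Nanopore, HDAC2 and AJUBA, where it was 33.2%. Past 2-fold were 2 genes toward Illumina and 3 toward Nanopore, with backgrounds of 11.5% and 35.3%. HDAC2 was 3.89-fold (2.85 to 5.19) and AJUBA 3.15-fold (2.06 to 4.61) higher by Nanopore on this scale, with exact binomial adjusted p-values of 7.0e-13 and 6.4e-06. EZH2 was at 32.6 TPM, 0.152 times as high by Nanopore (0.0184 to 0.549, exact binomial adjusted p = 0.00134), and EHMT2 at 20.3 TPM, 0.122 times as high (0.00309 to 0.679, exact binomial adjusted p = 0.0135). KDM1A, LOXL2 and SIN3A came close to equality, with Nanopore over Illumina ratios of 0.90 (0.588 to 1.32), 0.918 (0.489 to 1.57) and 1.08 (0.398 to 2.36), and their exact binomial adjusted p-values were 0.81, 0.984 and 1. RCOR1 and SUZ12 moved above 1, to 2.17 (1.12 to 3.79) and 1.61 (0.802 to 2.88), with exact binomial adjusted p-values of 0.0518 and 0.291. The choice of length decided some of these values. The union of all annotated exons of KDM1A is 18325 bases and its canonical transcript 3085, and with the union length KDM1A was called higher by Nanopore (log2 ratio 1.57, exact binomial adjusted p = 1.04e-05). With that length 1 gene was called higher by Illumina (background 12.8%) and 3 by Nanopore (32.4%), and 2 and 3 were past 2-fold (14.2% and 33.1%). HDAC1 and EZH2 no longer passed, with exact binomial adjusted p-values of 0.0817 and 0.262.

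**Figure D3:**
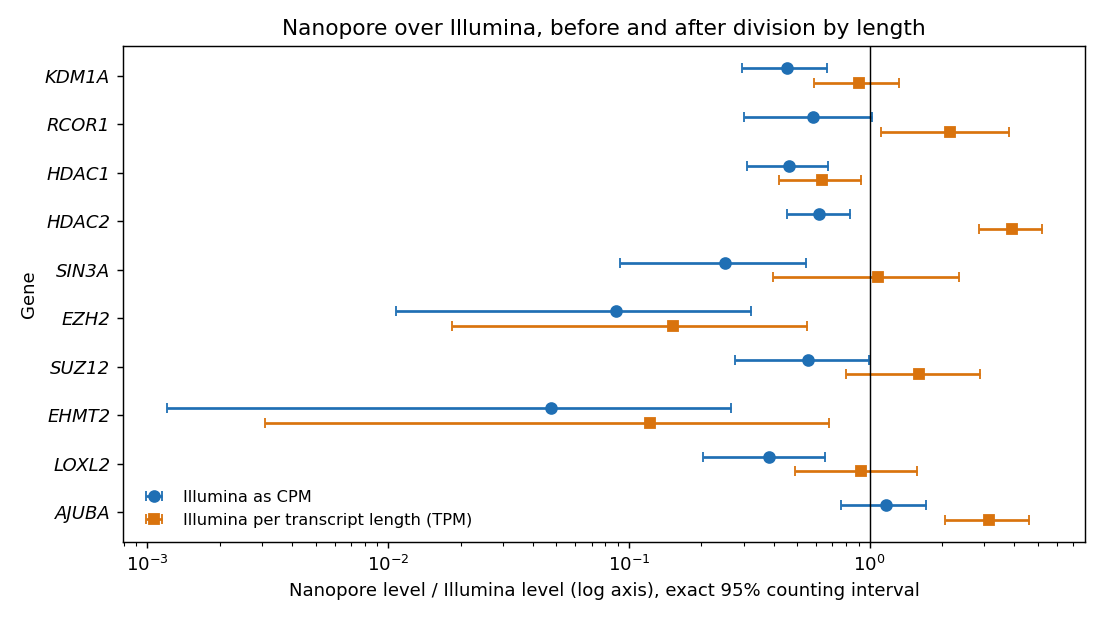
Nanopore level over Illumina level of each gene on a log axis, with the Illumina level as CPM (circles) or as TPM by canonical transcript length (squares) and exact 95% counting intervals. Division by length moved every gene to the right, and only HDAC1, EZH2 and EHMT2 kept intervals wholly under 1.

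The order of levels depended on the library and, for Illumina, on the length used. By Nanopore CPM it ran from HDAC2 (114) through HDAC1 (69.4), AJUBA and KDM1A (64.5 each), LOXL2 (32.2), RCOR1 (29.8), SUZ12 (27.3), SIN3A (14.9) and EZH2 (4.96) to EHMT2 (2.48). Counting intervals of every neighbouring pair in that order overlapped. By Illumina TPM it ran from HDAC1 (109) through KDM1A (71.6), LOXL2 (35.1), EZH2 (32.6), HDAC2 (29.3), AJUBA (20.5), EHMT2 (20.3), SUZ12 (17.0) and RCOR1 (13.7) to SIN3A (13.7), all by canonical transcript length. Only the pairs AJUBA with EHMT2 and RCOR1 with SIN3A had overlapping counting intervals there. By union exonic length KDM1A moved from place 2 to place 6. EZH2 moved from place 4 to place 9, its place by Nanopore. The deacetylases changed places. HDAC2 was 1.64-fold as abundant as HDAC1 by Nanopore (exact 95% interval 1.01 to 2.73), and 0.268 times as abundant by Illumina TPM, or 0.319 times with union exonic length. The canonical HDAC2 transcript is 9737 bases long and that of HDAC1 2118, and the tables do not show which lengths of HDAC2 transcript were present. SIN3A had the lowest Illumina TPM of the 10 by either length, though by canonical length it was not told apart from RCOR1. It stood at 0.126 times the level of HDAC1 by canonical length and at 0.214 times by Nanopore (0.0725 to 0.527).

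A gene body that overlaps another can receive the same reads, depending on how strand and multiple assignment were handled, which is not given in the sources used here. Of the 10 genes, 7 overlapped a gene with at least 1 count, 8 such genes in all. The largest disparities between libraries lay opposite KDM1A and HDAC2. The lncRNA gene ENSG00000240553 (chromosome 1, 23020147 to 23088058) runs on the opposite strand across nearly all of KDM1A, shares no annotated exon base with it, and had 32 Nanopore counts but only 291 Illumina counts (log2 ratio 5.00, exact binomial adjusted p = 9.05e-41). Its Nanopore count equalled the sum of the 2 counted genes that its body overlaps, KDM1A with 26 and LUZP1 with 6. HDAC2-AS2 (ENSG00000228624, chromosome 6, 113969701 to 114471705), opposite the upstream end of HDAC2 with 69 shared exon bases, had 20 Nanopore and 33 Illumina counts (log2 ratio 5.43, exact binomial adjusted p = 2.62e-38). At AJUBA, the protein-coding gene ENSG00000259132 (chromosome 14, 22946270 to 22982258), which spans AJUBA and HAUS4 on their own strand, had 39 Nanopore and 5119 Illumina counts (log2 ratio 1.82, exact binomial adjusted p = 4.20e-10). That Nanopore count again equalled a sum, AJUBA with 26 and HAUS4 with 13, though ENSG00000259132 shares only 50 annotated exon bases with AJUBA. PRMT5-DT, opposite HAUS4, also had 13 Nanopore counts but 100 Illumina counts, and the microRNA gene MIR4707 inside HAUS4 had 11 and 0. LUZP1, HAUS4, PRMT5-DT and MIR4707 were singled out after their values were seen. Whether single Nanopore reads were counted for more than 1 gene was not tested. All 4 genes overlapped by ENSG00000259132 together had 63. Elsewhere the counts were mostly unequal: HDAC2-AS2 had 20 Nanopore counts beside 46 for HDAC2, and LOXL2-AS1 had 5 beside 13 for LOXL2, while EHMT2-AS1 and EHMT2 had 1 each.

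**Figure D4:**
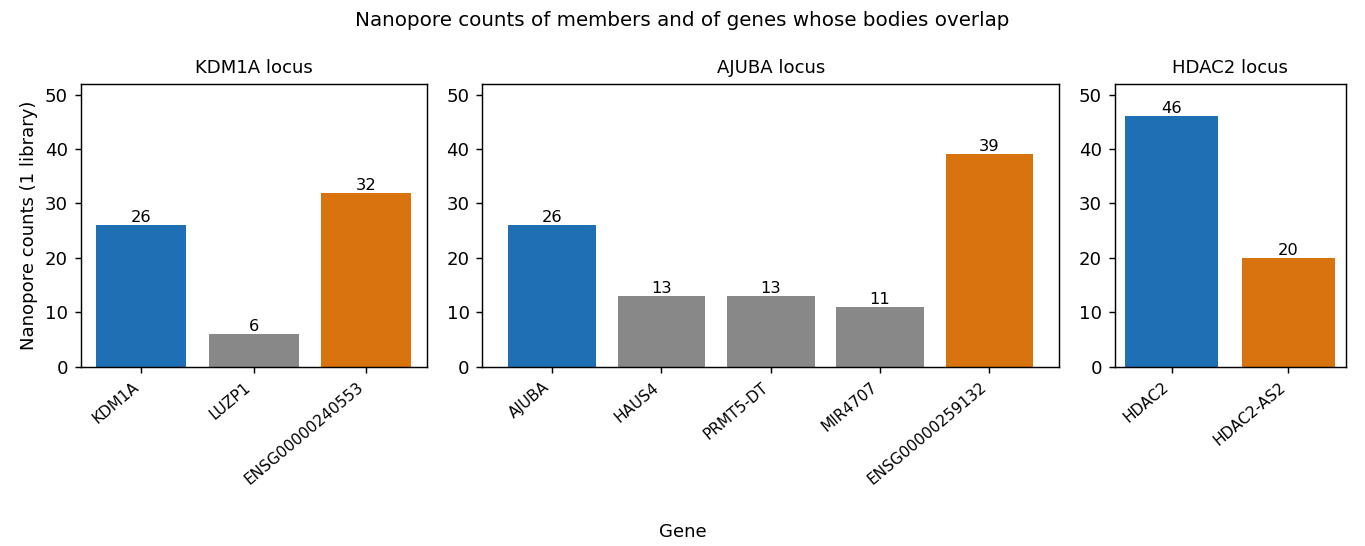
Nanopore counts at the KDM1A, AJUBA and HDAC2 loci, with the member in blue, other genes counted in the same stretch in grey and the gene whose body spans or faces them in orange. The orange bar of 32 at KDM1A equals 26 plus 6, and that of 39 at AJUBA equals 26 plus 13.

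The other 5 overlapping genes had few Nanopore counts. LOXL2-AS1, opposite LOXL2 with 178 shared exon bases, had 5 Nanopore and 367 Illumina counts (log2 ratio 2.20, exact binomial adjusted p = 0.00697). ENTPD4, a nucleotide hydrolase gene that shares 120 exon bases with LOXL2 on the same strand, had 11 and 9367. EHMT2-AS1, opposite EHMT2 with 592 shared exon bases, had 1 and 1766. ENSG00000260274, an lncRNA gene over the last 884 exon bases of SIN3A on the opposite strand, had 1 and 362. RNU7-20P inside EZH2 had 0 and 2. HDAC1 overlapped no annotated gene of the tables and RCOR1 and SUZ12 none with a count.

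The promoters were searched for CAGGTG, the E-box that Snail binds, read on both strands and so as CAGGTG or CACCTG. RefSeq windows from 250 bases before to 50 after the start site (GRCh38.p14) matched 9 of the 10 genes, in 12 windows, and 2 of the 12 held the motif, where 20.6% of all 35116 windows of the table did. They were the window of EHMT2 (chr6:31897649-31897948, minus strand), with CACCTG 216 bases before the start site, and that of a second, downstream start of AJUBA (chr14:22976793-22977092, minus strand), with CAGGTG 176 bases before it. A match is a run of letters and shows no binding, and no binding data were analysed here.

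The wider machinery was described with 12 lists of 113 genes that work with or against the Snail partners, of which 107 passed the filter. In CPM the test called 46 of the 107 higher by Illumina and 6 higher by Nanopore, where the background was 27.2% and 20.2%, and with Illumina TPM by canonical length the balance turned over, to 7 higher by Illumina and 31 by Nanopore (background 11.2% and 33.2%). Their median log2 ratio was -0.82 in CPM, or -0.76 with the 4 genes without a Nanopore count set to the floor of 3 counts, while that of all tested genes was -0.42 by either reckoning. Counts of the lists below are in CPM, followed by those in TPM, and log2 ratios of single genes are in CPM unless TPM is named. The filter was applied anew in TPM, and some genes tested in CPM, among them KDM1B, CBX6 and DNMT3A, fell below it there. Numbers of tested genes are those in CPM.

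Among 11 tested partners and relatives of KDM1A and RCOR1, 1 was higher by Illumina and 1 by Nanopore, and in TPM 0 and 5. KDM1B, the second demethylase of this class, had no Nanopore count, which allows up to 7.44 CPM, beside 14.1 CPM by Illumina (exact binomial adjusted p = 0.0173). Without a Nanopore count KDM1B passed the filter through its Illumina level alone, and could be called only toward Illumina. HMG20B, a subunit with a DNA-binding HMG box, was at 62.0 CPM by Nanopore and 37.2 CPM by Illumina (exact binomial adjusted p = 0.0478). Of 14 SIN3 complex genes 5 were higher by Illumina and 0 by Nanopore, and in TPM 1 and 4. Their log2 ratios were -2.42 for the demethylase KDM5A, -2.24 for SUDS3 and -1.89 for SINHCAF, none of which was called in TPM. SINHCAF had a copy on an alternate contig.

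The NuRD complex, which carries HDAC1 and HDAC2 to chromatin together with a nucleosome remodeller, had 7 of 12 genes higher by Illumina and 2 by Nanopore, and in TPM 1 and 5. The gene called higher by Illumina on both scales was MTA2, a scaffold subunit. It had 6 Nanopore counts where 80.9 would match its Illumina share of 200.6 CPM, a 13.5-fold ratio with an exact 95% interval of 6.19 to 36.7 (exact binomial adjusted p = 1.15e-25). In TPM its log2 ratio was -2.68 (exact binomial adjusted p = 2.45e-10). The paired subunits GATAD2A (-2.996) and GATAD2B (-3.11), the latter with a copy on an alternate contig, were not called in TPM.

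Of 10 PRC2 genes besides EZH2 and SUZ12, 6 were higher by Illumina and 0 by Nanopore, and in TPM 0 and 2. RBBP4 and RBBP7 also stand in the NuRD list and were counted there too. Both were among the 6, and RBBP4 was among the 2. The largest differences were those of the accessory subunits PHF1 (-2.67), EPOP (-2.67) and JARID2 (-2.38), of which PHF1 and EPOP had a copy on an alternate contig, and none was called in TPM. In PRC1, which binds the mark that PRC2 sets, 4 of 15 were higher by Illumina and 2 by Nanopore, and in TPM 1 and 6. The ubiquitin ligase RING1, with copies on 5 alternate contigs of chromosome 6, had 3 Nanopore counts where 12.3 would match, and was called higher by Illumina on both scales. CBX6 (-2.77) and PHC2 (-1.38) were called in CPM.

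Of 11 genes for lysine 9 methylation and its HP1 readers 7 were higher by Illumina and 0 by Nanopore, and in TPM 0 and 2. Among them the HP1 gene CBX5 changed sides, from -1.76 in CPM to 1.11 in TPM, called in each, while ATF7IP (-1.85) and ZNF644 (-1.45) were called in CPM alone. All 3 genes for DNA methylation that were tested in CPM were higher by Illumina there. In TPM DNMT1 and UHRF1 were not called, and DNMT3A was below the filter and so not tested. They were DNMT1 (-1.54), the maintenance methyltransferase, its partner UHRF1 (-1.79), and DNMT3A, which had no Nanopore count and 11.1 CPM by Illumina. DNMT3A therefore passed the filter in CPM through its Illumina level alone, and could be called only toward Illumina.

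Among the other deacetylases and their corepressors 4 of 10 were higher by Illumina and 0 by Nanopore, and in TPM 1 and 2. HDAC3, the deacetylase of the NCOR complexes, was called higher by Illumina on both scales (-1.72 in CPM, -1.40 in TPM), whereas NCOR1 turned from -1.54 to 1.15, called in each. HDAC6, a largely cytoplasmic deacetylase (-1.51), was called in CPM alone. LOX, the founding lysyl oxidase, had 25 Nanopore counts, 62.0 CPM, and 19.8 CPM by Illumina, 3.14-fold higher by Nanopore (exact 95% interval 2.03 to 4.64, exact binomial adjusted p = 1.11e-05). Its relative LOXL2 was higher by Illumina in CPM, as given above. LOXL1 and LOXL4 were below the filter, and LOXL3 was not called in CPM. In TPM the test called both tested members of this list, LOX and LOXL3, toward Nanopore.

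Of 6 LIM proteins related to AJUBA 3 were higher by Illumina and 0 by Nanopore, LPP (-1.97), LIMD1 (-1.75) and FBLIM1 (-1.30), and in TPM 0 and 1, with none of these 3 called. The next list held the arginine methyltransferase PRMT5, which AJUBA is known to bring to Snail, the PRMT5 partner WDR77 and the 14-3-3 genes. Of these 6 of 9 were higher by Illumina and 0 by Nanopore, and in TPM 3 and 2. YWHAG (-1.95) and YWHAE (-1.85) were called higher by Illumina on both scales and WDR77 (-1.07) in CPM alone. YWHAE had a copy on an alternate contig. Of 6 demethylases that remove the repressive marks 2 were higher by Illumina and 0 by Nanopore, KDM3A (-2.89) and KDM4A (-1.72), and in TPM 0 and 1, with neither of these called.

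**Figure D5:**
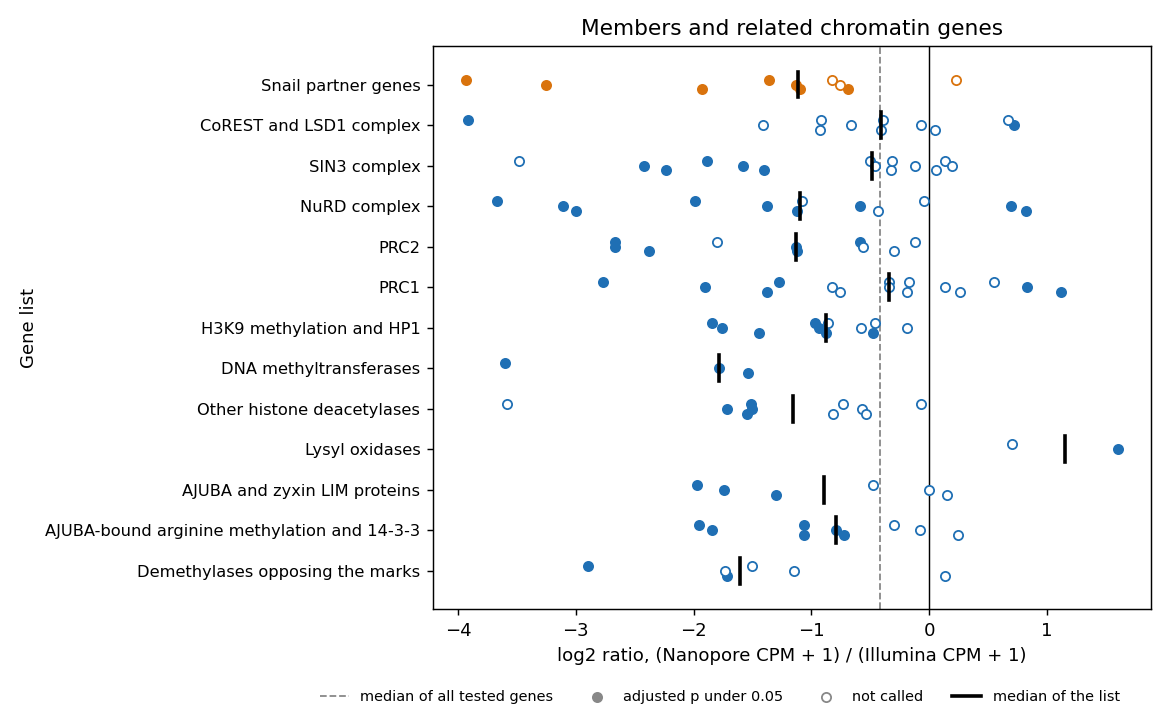
Log2 ratio of Nanopore over Illumina (CPM + 1) for the 10 Snail partners (orange) and for each tested gene of 12 related lists (blue), filled where the exact binomial adjusted p-value was under 0.05. Black bars are list medians and the dashed line is the median of all tested genes, -0.42, and lysyl oxidases are the list with a median above 0, from 2 genes.

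SNAI1 itself, endogenous gene and transgene together as far as the tables can show, had 286 Nanopore counts, 709 CPM (629 to 796), and by Illumina 860 CPM, 782 TPM by canonical length and 1367 TPM by union length. It was called higher by Illumina in CPM (exact binomial adjusted p = 0.0027) and by union length (exact binomial adjusted p = 6.02e-34), not by canonical length (exact binomial adjusted p = 0.183). Both lengths of SNAI1 are 1705 bases. Its TPM values therefore differ only through the sum over all genes used for scaling, not through its own length. On each scale its level was above that of each of the 10 partners in both libraries, the highest of which were HDAC2 by Nanopore (114 CPM) and HDAC1 by Illumina (109 TPM).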

How the data were processed

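Gene counts of 1 Nanopore direct RNA and 1 Illumina library were used. The authors deposited raw counts per gene, whole numbers with no scaling, in a single column each per the file headers. The submitters' processing notes name minimap2 2.11-r797, HISAT2 2.1.0, featureCounts and hg38. The annotation, strand setting, treatment of multi-mapped and multi-gene reads, use of alternate contigs and any correction of Nanopore reads with short reads are not given in the sources used here. If reads were so corrected, the libraries are not independent measurements.

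Identifiers were matched to GENCODE 44 (58207 of 58735 found). Counts were divided by library totals (CPM), and ratios are log2 of CPM plus 1. With 1 library per platform no dispersion can be estimated, so the genes averaging 5 CPM or more were compared by a two-sided exact conditional binomial test (double the smaller tail, scipy 1.17.1), with Benjamini-Hochberg adjustment over all of them. The code was first run on simulated counts that held counting error alone, as the test assumes. That check therefore covers no other difference between the libraries. Intervals are exact 95% Poisson (levels) or Clopper-Pearson (ratios). They cover counting error only, and they are too narrow where amplified reads repeat a molecule. The floor was 3 counts. Canonical transcripts were aligned to hg38 with alternate contigs (minimap2 2.31), and a copy had at least 80% aligned at up to 5% divergence. Alternatives were 2 other pseudocounts (0.1 and 5 CPM), 2 other filters, 3 other scalings (TMM from edgeR 4.0.16) and 2 TPM lengths.

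Named were all members, SNAI1, every counted gene overlapping a member, and from each list up to 3 called genes with the largest ratio. The members and lists were chosen with earlier results of these data known.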

Additional observations from a re-analysis of the deposited data

How the results depend on the processing

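Pseudocounts of 0.1 and 5 CPM changed no call of the 10 genes and could not, since they enter the ratio and not the test. The median log2 ratio of the 10 genes, -1.11, became -1.12 and -1.07 with the pseudocounts. Both other filters on mean level changed no call. All 10 genes passed each filter, so the median could not move with them. TMM scaling, median-ratio scaling and totals without mitochondrial genes changed no call of a gene and moved the median to -1.03, -0.99 and -1.05. Under median-ratio scaling 5 genes instead of 6 were past 2-fold toward Illumina, since HDAC1 came to -0.97. Division by length was what altered the calls. By canonical transcript length the median became -0.0051, 3 genes were higher by Illumina and 2 by Nanopore, and 2 and 3 were past 2-fold in those directions. By union exonic length the median reversed to 0.32, 1 gene was higher by Illumina and 3 by Nanopore, and again 2 and 3 were past 2-fold. The log2 ratios that reversed, by canonical and by union length, were HDAC2 (1.93 and 1.78), RCOR1 (1.06 and 0.40), SIN3A (0.11 and 0.23) and SUZ12 (0.65 and 0.40), and KDM1A by union length only (1.57). EHMT2 was called higher by Illumina under all 9 alternatives, of which the pseudocounts could not alter a call. No paired analysis was possible because each group holds 1 library. Depth limits EHMT2 and EZH2 most, whose 1 and 2 Nanopore counts lie under the floor of 3.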
